A study of Homo sapiens with 4 samples.

Results

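Of 18132 genes read on these arrays, 38 were followed here: 16 matrix metalloproteinases (MMPs), 6 inhibitors of MMPs, 7 ADAM and 3 ADAMTS proteases, 5 cathepsins and heparanase. They were chosen by name, as genes that cut the extracellular matrix or hold such enzymes in check, and every probe set whose annotation names a single listed gene was taken, which gave 110 probe sets. All 38 genes had at least 1, and no probe set named a listed gene together with another. Total RNA came from MDA-MB-231, a triple-negative human breast cancer line from a pleural effusion, grown in DMEM with fetal bovine serum. Control cells carried a control shRNA (RHS4080, Dharmacon) and ELK3 KD cells an shRNA to the ETS factor ELK3 (RHS4531-EG2004, Dharmacon), both brought in by retrovirus and kept under puromycin, and each group had 2 arrays named as biological repeats. The study's methods start from MDA-MB-231-GFP-Luc cells and give several KD and control lines made with the same shRNA, but neither they nor the labels say which line each repeat is, so a p-value here reflects the spread from array to array and may be technical.

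Values were log2 intensities that had been background-corrected and normalized between arrays (RMA), with array medians of 6.23 to 6.27. No detection call came with them, so probe sets of olfactory receptor genes, which should be silent here, served as a guide to background, and 95% of their means lay below 5.69. ELK3 itself was lower in both KD arrays, at 8.34 and 8.33 against 10.85 and 10.82 in the control arrays, a difference of -2.50 (standard error 0.07, adjusted p = 3.57e-05 by limma). Most line markers moved too. All 6 genes chosen as high in MDA-MB-231 (VIM, CD44, AXL, NT5E, PLAU and CAV1) were lower in the KD arrays, with summed log2 values of 72.5 to 72.6 in the control and 42.1 to 43.1 in the KD arrays. CDKN2A, CDKN2B and MTAP lie in a stretch of 9p21 that MDA-MB-231 is known to lack. CDKN2A read 5.10 and 4.61 in control cells against 11.33 and 11.43 in KD cells, CDKN2B rose by 3.94, and 5 of the 6 MTAP probe sets rose by 2.98 to 4.55, while the brightest MTAP probe set fell by 0.45. Of 9 markers of HEK293, a kidney line used to package retroviruses, 7 were higher in the KD arrays and 0 lower. Summed log2 values of the 9 were 47.9 to 49.1 in the control and 76.7 to 76.8 in the KD arrays. PAX2 and NEFM lay below the guide in all arrays. Of 4 genes chosen as low in MDA-MB-231, ERBB2 was lower in the KD arrays (-0.38), and CDH1, ESR1 and PGR did not pass. These 4 did not go against the label. At most of the other markers the KD arrays went against their cell line label. A difference between lines and an effect of the shRNA cannot be told apart in any result that follows. Their part in those results was not tested. In bulk RNA, fewer cells of a type and less RNA per cell cannot be told apart either.

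MMPs are zinc enzymes that cut collagens and other matrix proteins, and they are made as inactive precursors that other proteases, such as furin, must clip. TIMPs hold them in check. ADAMs cut proteins off the cell surface, ADAMTS proteases cut proteoglycans in the matrix, and cathepsins work mostly in lysosomes but can be secreted by invasive tumour cells. MMP14 and the cysteine cathepsins are known for their part in the invasion of breast cancer cells through collagen.

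Because ELK3 binds DNA through an ETS domain, promoters of 4 genes that changed are shown, each from 250 bases before to 50 bases after the transcript start (RefSeq, GRCh38.p14, in the direction of the gene). The first 2 belong to the sheddases ADAM10 (chr15:58749658-58749957, minus strand) and ADAM17 (chr2:9555781-9556080, minus strand), both lower in KD cells. Capitals mark the ETS-type letters AGGAAG and CCGGAAG on either strand.
ADAM10: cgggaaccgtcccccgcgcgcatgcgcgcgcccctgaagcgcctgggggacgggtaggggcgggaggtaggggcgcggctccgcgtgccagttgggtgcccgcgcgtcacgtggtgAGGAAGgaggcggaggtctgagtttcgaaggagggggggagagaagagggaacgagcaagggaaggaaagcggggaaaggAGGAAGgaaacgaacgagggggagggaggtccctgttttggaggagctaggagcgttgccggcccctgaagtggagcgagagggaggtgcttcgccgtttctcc
ADAM17: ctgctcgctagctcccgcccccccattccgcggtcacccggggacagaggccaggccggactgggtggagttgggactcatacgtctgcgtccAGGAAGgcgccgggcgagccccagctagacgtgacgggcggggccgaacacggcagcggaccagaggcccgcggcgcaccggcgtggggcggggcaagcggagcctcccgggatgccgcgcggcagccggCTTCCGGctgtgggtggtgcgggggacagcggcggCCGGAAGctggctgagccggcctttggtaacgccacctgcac

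The other pair belongs to the close relatives CTSL (chr9:87725869-87726168, plus strand) and CTSV (chr9:97039093-97039392, minus strand), of which the former was lower and the latter higher in KD cells. Capitals mark the longest run of bases that both promoters hold.
CTSL: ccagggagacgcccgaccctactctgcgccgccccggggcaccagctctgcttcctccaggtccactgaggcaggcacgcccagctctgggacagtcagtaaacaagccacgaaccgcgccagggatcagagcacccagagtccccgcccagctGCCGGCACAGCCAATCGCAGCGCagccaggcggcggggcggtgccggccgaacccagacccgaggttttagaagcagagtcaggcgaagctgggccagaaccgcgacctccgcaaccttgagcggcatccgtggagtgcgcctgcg
CTSV: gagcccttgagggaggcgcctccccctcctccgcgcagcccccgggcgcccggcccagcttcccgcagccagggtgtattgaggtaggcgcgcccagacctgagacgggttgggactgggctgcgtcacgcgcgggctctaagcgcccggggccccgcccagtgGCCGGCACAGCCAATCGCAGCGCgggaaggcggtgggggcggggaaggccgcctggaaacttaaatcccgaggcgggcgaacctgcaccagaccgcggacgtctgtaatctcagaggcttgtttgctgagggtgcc

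The shared run of 23 bases lay 96 to 74 bases before the start in CTSL and 86 to 64 bases before it in CTSV, and of 27305 promoters in the table these 2 held it. It includes the letters CCAAT, so a pair of genes that moved in opposite directions carried the same stretch next to the start. ADAM10 held AGGAAG 134 and 54 bases before the start, and CTSL held it 200 bases before the start, left in small letters above. ADAM17 held it 157 bases before the start and CCGGAAG 27 bases before and 9 bases after. The table had a promoter for 21 of the 38 genes. Searched on both strands, AGGAAG was in 8 of these 21 and in 33.7% of all promoters, CCGGAAG in 1 of 21 and 10.7%, the AP-1 letters TGAGTCA in 1 of 21 (MMP7) and 4.92%, CCAAT in 10 of 21 and 35.7%, and the CArG box in 0 of 21 and 1.29%. The AGGAAG and CCGGAAG matches shown did not overlap. Letters are matches only, and binding was not measured. AGGAAG stood in 4 of the 10 promoters of genes called lower and in 4 of the 10 of genes that did not pass the test.

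Across the 38 genes, 15 were lower in KD cells, 5 were higher and 18 did not pass the test (limma, adjusted p under 0.05 over all 18132 genes). The background was wide: 23.5% of all genes were lower, 26.0% higher and 49.5% either, so calls as such were common, and the share of the 38 genes that was lower (39.5%) stood above the share of all genes while the share that was higher (13.2%) stood below it. At a difference of 2-fold or more, 11 of the 38 were lower and 4 higher, against 6.82% and 9.61% of all genes. The arrays of the groups did not overlap for 21 genes with the KD arrays lower and for 8 with the KD arrays higher, against 40.8% and 35.4% of all genes. The median difference was -0.15 over the 38 genes and -0.05 over all genes. The 38 genes were chosen with earlier results of these data known, so their shares beside all genes are descriptions, not tests. Both group means lay above the guide for 22 of the 38 genes, 1 mean for 7 and neither for 9, and where a mean lay below it background limits the size of the difference.

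**Figure D1:**
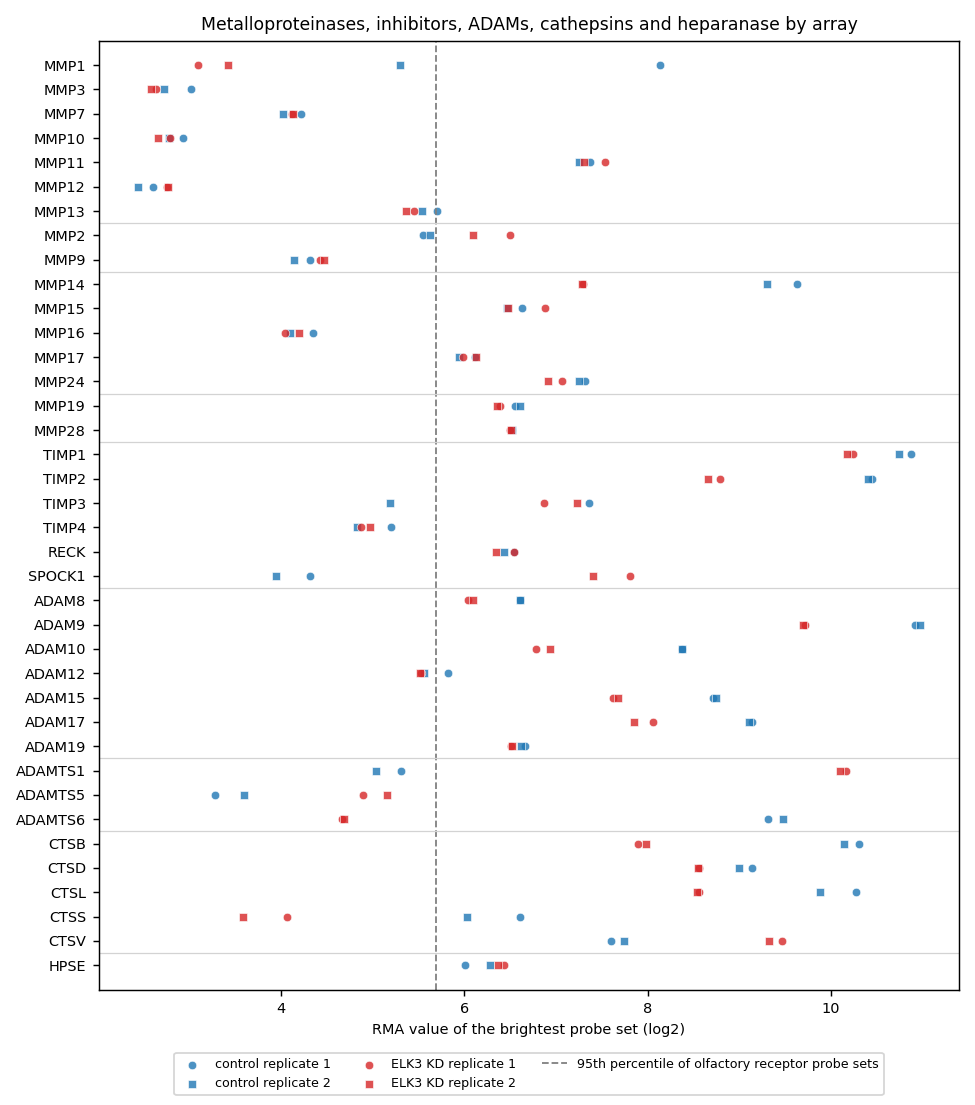
Level of each of the 38 genes (rows, grouped by role) in the 4 arrays, as the log2 RMA value of its brightest probe set; circles are replicate 1 and squares replicate 2, blue for control and red for ELK3 KD, and the dashed line is the background guide at 5.69. KD points lie left of all control points for 21 genes and right of them for 8, and the 2 control points of MMP1 and TIMP3 lie far apart.

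MMP14 (MT1-MMP), the membrane-bound collagenase that invasive cells carry at their front, was lower in KD cells. It read 9.63 and 9.30 in control cells against 7.29 and 7.28 in KD cells. Both KD arrays lay below both control arrays by far more than the arrays of a group differed, and the difference was -2.18 (standard error 0.13, adjusted p = 0.000219, 4.53-fold). All 4 MMP14 probe sets were lower, by -0.85 to -2.29. Of the other membrane-type enzymes, MMP15, MMP16 and MMP17 did not pass the test, with differences from -0.11 to 0.13, and MMP16 lay below the guide in all arrays. MMP24, a membrane-type enzyme known from nerve tissue, passed narrowly with -0.29 (adjusted p = 0.0451), and neither of its 2 probe sets passed when all probe sets were tested. The call was lost with each of the 4 arrays left out and under 9 alternatives in all.

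TIMP2 forms a complex with MMP14 at the cell surface, and that complex activates the gelatinase MMP2. TIMP2 read 10.45 and 10.41 in control cells against 8.79 and 8.66 in KD cells, a difference of -1.71 (standard error 0.08, adjusted p = 0.000142, 3.26-fold). Both its probe sets were lower. MMP2 went the other way, from 5.55 and 5.62 to 6.50 and 6.10, with a difference of 0.71 (standard error 0.15, adjusted p = 0.0134). Its control mean lay under the guide, and 2 of its 4 probe sets were higher. The MMP2 call was lost without either control array, with adjusted p = 0.0899 without replicate 1 and 0.0696 without replicate 2. So of the 3 parts of this activation complex, MMP14 and TIMP2 fell and MMP2 rose. The other gelatinase, MMP9, stayed between 4.14 and 4.47, below the guide in every array.

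MMP1, interstitial collagenase, showed the widest spread between replicates of the 38 genes. It read 8.14 and 5.29 in control cells against 3.09 and 3.42 in KD cells. Both KD arrays lay below both control arrays. Control replicate 2 and both KD arrays lay below the guide, so only control replicate 1 stood above it. The control arrays differed by 2.84, and a gap at least as wide was found for 2 of 18132 genes, MMP1 included. The difference was -3.46 (standard error 0.91, adjusted p = 0.0296), and the other MMP1 probe set gave -3.67. Without control replicate 1 it was -2.04 and without control replicate 2 it was -4.89, both past the test, while without KD replicate 1 (adjusted p = 0.155) or KD replicate 2 (adjusted p = 0.127) the call was lost.

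MMP1 lies in a row of 9 MMP genes on chromosome 11, in the order MMP7, MMP20, MMP27, MMP8, MMP10, MMP1, MMP3, MMP12 and MMP13, and of these it alone passed the test. The stromelysins MMP3 and MMP10, matrilysin (MMP7), the macrophage elastase MMP12 and the collagenase MMP13 had both group means below the guide, with differences from -0.26 to 0.24. Of 5 genes that flank the row, 3 were lower and 1 higher, where 49.5% of all genes were called either way. All 5 had both group means above the guide, so they do not compare with the dim genes of the row. The apoptosis inhibitor BIRC2 (-1.14), the Hippo effector YAP1 (-0.82) and TMEM123 (-0.79) were lower, the ciliary motor gene DYNC2H1 was higher (1.89), and DCUN1D5 did not pass.

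**Figure D2:**
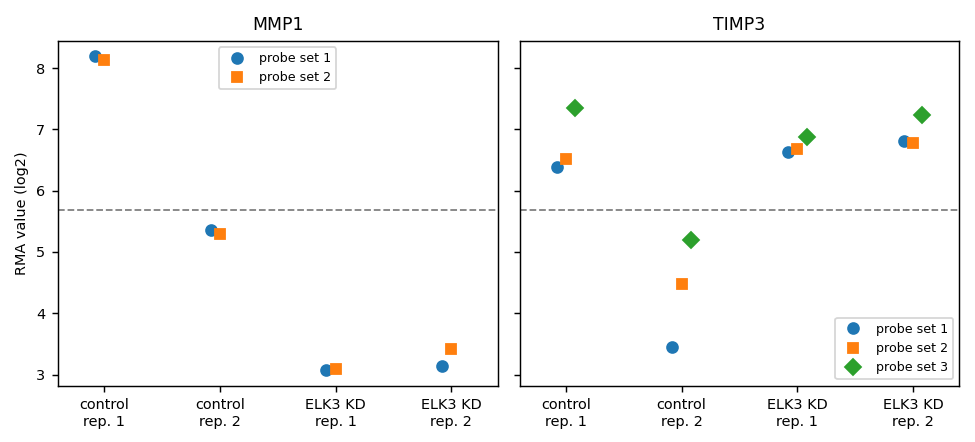
Log2 RMA values of every probe set of MMP1 (left, 2 probe sets) and TIMP3 (right, 3 probe sets) in the 4 arrays, with the background guide of 5.69 as a dashed line. In both genes all probe sets read higher in control replicate 1 than in control replicate 2, and the KD arrays lie close together, below both controls for MMP1 and near control replicate 1 for TIMP3.

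TIMP3, a matrix-bound inhibitor that also blocks ADAM17, showed the same split between controls. It read 7.36 and 5.19 in control cells against 6.87 and 7.23 in KD cells, so the groups overlapped at this brightest probe set, and the difference of 0.78 (standard error 0.70, adjusted p = 0.407) did not pass. At the other 2 probe sets the KD arrays lay above both control arrays. The group means differed by 3.49-fold and 2.35-fold, and neither passed. Control replicate 1 was close to the KD arrays there, at 6.39 against 6.63 and 6.81, and at 6.52 against 6.68 and 6.78. Control replicate 2 read 3.45 and 4.48. The TIMP3 value rested on which control array was used. Without control replicate 1 the difference was 1.86 (adjusted p = 0.00999) and without control replicate 2 it was -0.31 (adjusted p = 0.278). A control gap as wide as that of TIMP3 (2.17) was found for 8 of all genes. Control replicate 1 read above control replicate 2 for 28 of the 38 genes (73.7%) and for 51.8% of all genes.

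The remaining inhibitors did not share a direction. TIMP1, a secreted inhibitor of most MMPs, fell by 0.60 (standard error 0.08, adjusted p = 0.00343), with 2 of 3 probe sets lower. SPOCK1, the proteoglycan testican-1, rose. It read 4.31 and 3.94 in control cells against 7.80 and 7.41 in KD cells, and the groups lay far apart, with the control arrays below the guide. The difference was 3.48 (standard error 0.19, adjusted p = 0.000176, 11.2-fold), from its single probe set. RECK, a membrane-anchored inhibitor, gave -0.04 (adjusted p = 0.749), and TIMP4 gave -0.10 below the guide. Of the 6 inhibitors, 2 fell, 1 rose and 3 did not pass, a share called close to the 49.5% of all genes. Among the MMPs not yet described, MMP11 (stromelysin-3) gave 0.11, MMP19 -0.21 and MMP28 -0.02, none past the test.

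All 7 ADAMs had both KD arrays below both control arrays (40.8% of all genes did), 5 passed the test as lower (23.5% of all genes), and the median difference over the group was -1.08. ADAM10, the sheddase of Notch receptors and cadherins, read 8.37 and 8.38 in control cells against 6.78 and 6.93 in KD cells. The KD arrays lay well below, by -1.52 (standard error 0.09, adjusted p = 0.000202, 2.86-fold), and its 4 probe sets were all lower, the most by -2.30. ADAM17, which releases TNF and several EGF receptor ligands, read 9.14 and 9.11 against 8.06 and 7.85. It fell by 1.17 (standard error 0.10, adjusted p = 0.000612), with 3 of 4 probe sets lower and a dim probe set not past the test.

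ADAM9, a sheddase with a disintegrin domain that binds integrins, read 10.92 and 10.98 in control cells against 9.72 and 9.70 in KD cells. Its difference of -1.24 (standard error 0.07, adjusted p = 0.000223) was seen in all 4 probe sets. ADAM15, which also binds integrins, read 8.71 and 8.74 against 7.62 and 7.68. Its difference was -1.08 (standard error 0.07, adjusted p = 0.000338), with 5 of 6 probe sets lower. In both genes the groups stood apart by far more than their arrays differed. ADAM8, an ADAM of leukocytes and tumour cells, fell by 0.54 (adjusted p = 0.00301), with 4 of 4 probe sets lower. ADAM12 and ADAM19, best known from muscle and developing tissue, gave -0.17 and -0.13 and did not pass at their brightest probe set. For ADAM12, 2 of 5 probe sets were lower, by -1.89 and -1.08, both dim.

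**Figure D3:**
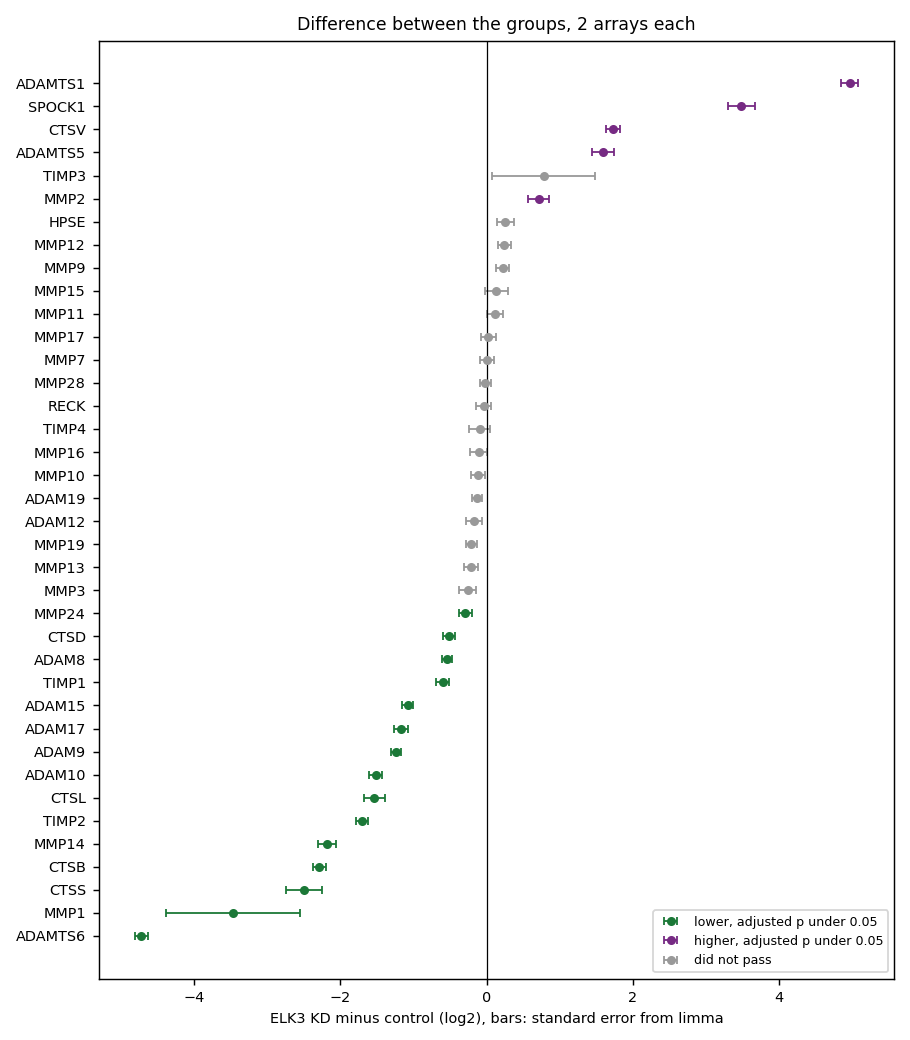
Difference between ELK3 KD and control (log2, points) with the standard error from limma (bars) for the 38 genes, 2 arrays in each group, ordered by difference; green genes were lower and purple genes higher at an adjusted p under 0.05, and grey genes did not pass. ADAMTS6 and ADAMTS1 mark the ends at -4.72 and 4.96, and the bars of MMP1 and TIMP3 are the widest.

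The ADAMTS genes gave both extremes. ADAMTS1, a secreted protease of the proteoglycans versican and aggrecan, read 5.31 and 5.03 in the control arrays, below the guide, and 10.17 and 10.10 in the KD arrays. The groups lay far apart, and the difference of 4.96 (standard error 0.12, adjusted p = 2.41e-05, 31.2-fold) was the greatest rise of the 38 genes. Its other probe set gave 3.46. ADAMTS6, a secreted protease of the same family, read 9.31 and 9.47 in control cells against 4.66 and 4.69 in KD cells. It went from well above the guide to below it, by -4.72 (standard error 0.09, adjusted p = 1.82e-05, 26.4-fold), the greatest fall. A dim probe set of ADAMTS6 fell by 0.59. ADAMTS5, the aggrecanase, read 3.27 and 3.59 against 4.89 and 5.15, a difference of 1.59 (standard error 0.15, adjusted p = 0.000915). The groups did not overlap, but all 4 values lay below the guide and 2 of its 4 probe sets were higher.

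Of the 5 cathepsins, 4 were lower and 1 higher, where 23.5% of all genes were lower and 26.0% higher. CTSB, a cysteine cathepsin secreted by many invasive tumours, read 10.31 and 10.14 in control cells against 7.90 and 7.98 in KD cells. The groups stood far apart, by -2.29 (standard error 0.09, adjusted p = 7.9e-05, 4.88-fold), and all 4 probe sets were lower. CTSS, a cysteine cathepsin of antigen-presenting cells that works at neutral pH, read 6.61 and 6.03 against 4.06 and 3.58. Its difference was -2.50 (standard error 0.25, adjusted p = 0.00113, 5.64-fold), to below the guide, and both probe sets were lower. CTSD, the main aspartic protease of lysosomes, fell by 0.51 (adjusted p = 0.00622) at its brightest probe set and by a similar amount at the other 2. The CTSD call was lost without KD replicate 1 (adjusted p = 0.0581) or KD replicate 2 (adjusted p = 0.0588).

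CTSL and CTSV, whose promoters are given above, moved in opposite directions. CTSL, a widely made cysteine cathepsin, read 10.28 and 9.89 in control cells against 8.56 and 8.54 in KD cells, a difference of -1.53 (standard error 0.14, adjusted p = 0.000907, 2.89-fold). CTSV, its closest human relative and best known from thymus, testis and skin, read 7.60 and 7.74 against 9.46 and 9.33. That was a rise of 1.73 (standard error 0.09, adjusted p = 0.000181, 3.31-fold), and its 3 probe sets rose by 1.73 to 1.97. Neither gene's groups overlapped. HPSE, heparanase, which cuts heparan sulfate chains, gave 0.26 (adjusted p = 0.123), while its dimmer probe set was higher by 0.88.

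Of the 110 probe sets, 47 were lower and 12 higher, against 24.0% and 24.3% of all 49293 probe sets, and 31 were lower and 7 higher by 2-fold or more, against 7.23% and 8.77%. At least 1 probe set was lower for 17 genes and higher for 7, and 0 genes had probe sets called in both directions. Such per-gene counts grow with the number of probe sets and were not made over all genes, so no background share stands beside them. Of the 20 genes called, 14 had every probe set called the same way, among them SPOCK1 and CTSL, which have a single probe set. In 5 genes that did not pass at their brightest probe set, MMP11, MMP19, ADAM12, ADAM19 and HPSE, another probe set did. Probe sets of 1 gene can read different transcript ends, and none of these differences was tested.

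**Figure D4:**
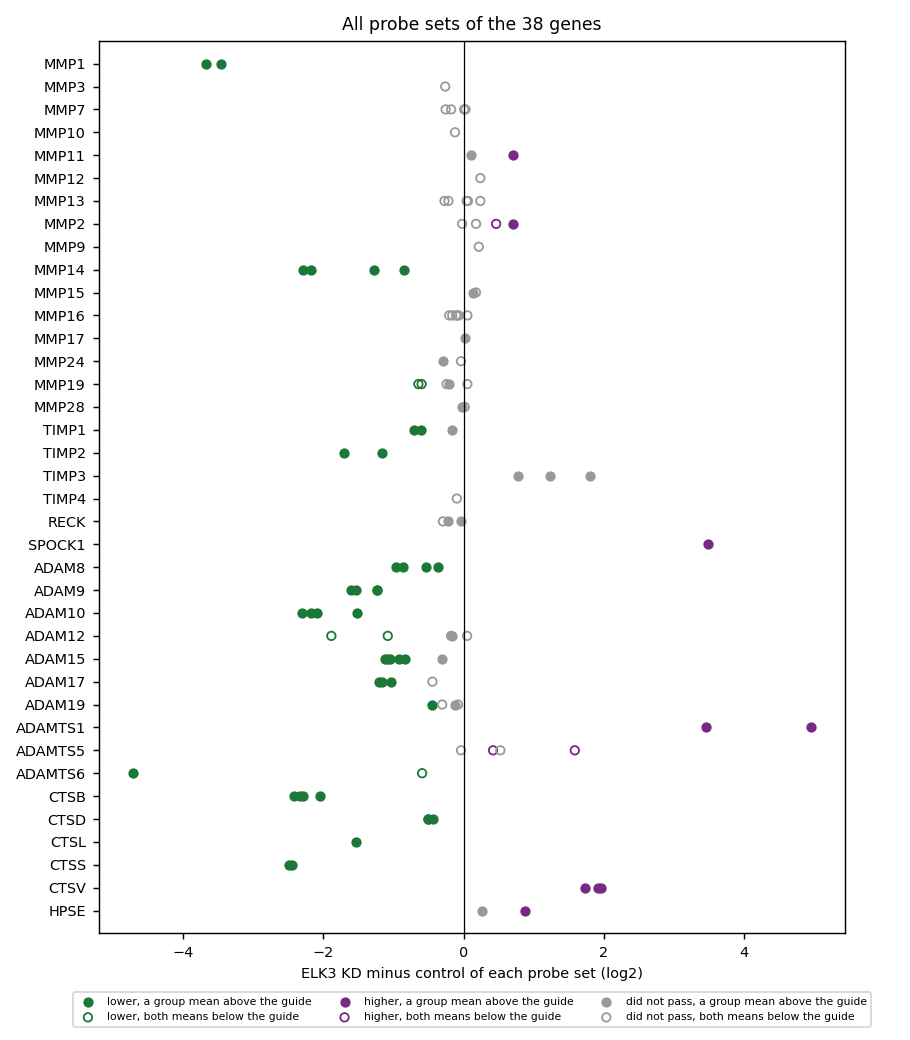
Difference between ELK3 KD and control (log2) of each of the 110 probe sets, by gene; green points were lower, purple points higher and grey points did not pass, and open points had both group means below the background guide. All 4 probe sets of MMP14, ADAM8, ADAM9, ADAM10 and CTSB lie left of 0, and those of ADAMTS1 and CTSV lie right of it.

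Around these genes, 99 related genes were read, of which 27 were higher and 23 lower (27.3% and 23.2%), close to the 26.0% and 23.5% of all genes. The counts of single lists that follow are to be read against those shares. The other MMPs measured (6) were all below the guide and none passed. Of 11 other ADAMs, 3 were higher and 1 lower, with ADAM23, an ADAM without protease activity, highest at 1.89. That was 1 of 11 lower, beside 5 of the 7 ADAMs above, and the lists were not tested against each other. The lists also differ in level. Both group means lay below the guide for 8 of the 11 and for 0 of the 7. Of 15 other ADAMTS genes, 6 were higher and 4 lower. They included ADAMTS13 (2.34), the protease of von Willebrand factor, ADAMTS17 (2.15), ADAMTS3 (1.81), which trims procollagen, and ADAMTS16 (-1.92).

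Of 11 other genes, 10 cathepsins and the lysosomal protease legumain (LGMN), 4 were lower and 4 higher, LGMN being 1 of the higher. CTSF (-1.83), CTSC (-1.39), which activates granule proteases of leukocytes, and the collagenolytic CTSK (-0.94) were lower and CTSZ (1.07) was higher. Both group means of CTSF lay below the guide. Of 9 cystatins, the inhibitors of cysteine cathepsins, 3 were lower and 0 higher: CST7 (-2.56), CST6 (-0.83) and CST3 (-0.49). Both group means of CST6 lay below the guide. Of 14 other lysosome genes 5 were higher and 2 lower, the latter being the cholesterol exporters NPC1 (-2.64) and NPC2 (-1.29), and HEXA (0.73) and TPP1 (0.55) rose most.

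Among 17 activators and partners, 4 were higher and 4 lower. The proprotein convertases PCSK5 (2.68) and PCSK6 (1.77) were higher, and FURIN, a convertase that clips MMP14 and ADAM precursors, was lower (-1.01). RHBDF1 (-0.66) and RHBDF2 (-0.90), which escort ADAM17 to the cell surface, both fell. Of the 6 tetraspanins that escort ADAM10, TSPAN14 was lower (-1.24), TSPAN15 (1.04) and TSPAN33 (0.78) were higher, and TSPAN5, TSPAN10 and TSPAN17 did not pass. Of 11 genes, 10 core proteins that carry heparan sulfate, the substrate of heparanase, and the heparanase relative HPSE2, which did not pass, 4 were higher and 2 lower. GPC3 (4.80), GPC4 (4.66) and SDC2 (3.44) rose, while SDC4 (-2.59) and SDC1 (-2.36) fell.

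**Figure D5:**
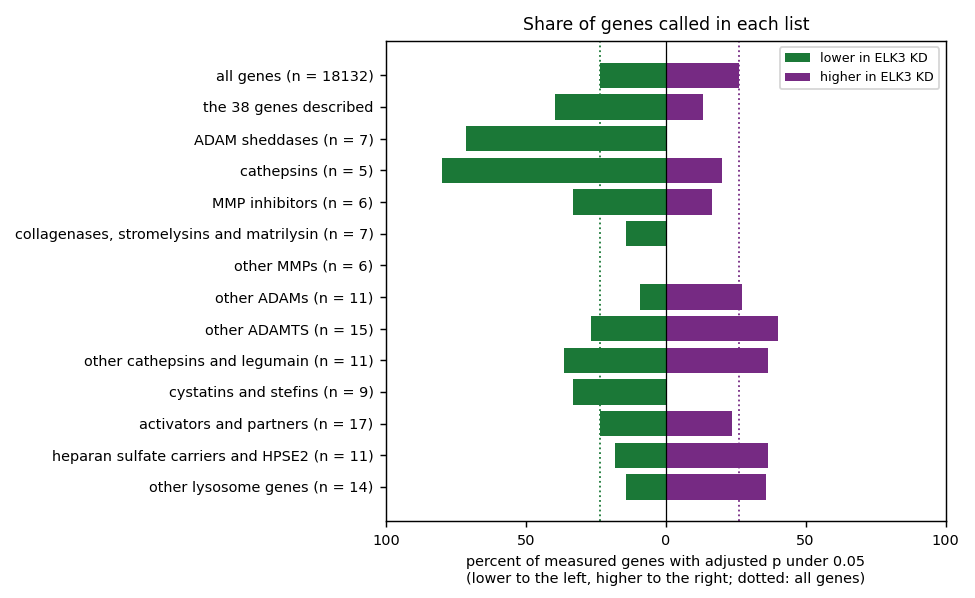
Percent of the measured genes of each list that passed the test, lower to the left and higher to the right, with all 18132 genes at the top and as dotted lines (23.5% lower, 26.0% higher). The ADAMs (5 of 7) and cathepsins (4 of 5) among the 38 genes reach furthest to the left, and the other ADAMs and ADAMTS genes lie more to the right. Both group means lay below the background guide for 8 of the 11 other ADAMs and 8 of the 15 other ADAMTS genes. The lists are short and the bars are counts, not tests.

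Some of these proteases are also made in tissue by leukocytes and fibroblasts, so markers of those cells were read. Of 9 leukocyte markers 2 were lower (CD68 and TYROBP) and 0 higher, with summed log2 values of 43.0 to 44.2 in the control and 40.7 to 41.1 in the KD arrays, and PTPRC, which defines leukocytes, and CD14, a marker of monocytes and macrophages, lay below the guide in every array. Of 8 fibroblast markers 3 were higher (COL1A1, COL3A1 and LUM) and 1 lower (FAP), with sums of 33.6 to 33.7 and 39.6 to 40.0. LUM, COL1A2, DCN, FAP and THY1 lay below the guide in every array, so the rise of LUM was among dim values. Their part in the results was not tested.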

How the data were processed

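Gene expression was measured on 4 arrays, 2 per group. Values of 49395 probe sets were used as deposited, on the log2 scale. Per the submitters' processing notes the authors ran RMA with Affymetrix Expression Console (versions not given in the sources used here). The methods of the study name an Illumina BeadChip, whereas the labels and the probe set names are Affymetrix, and the values were taken as such. RMA compresses low values, and normalization to 1 distribution hides a change in total RNA. All value columns belonged to a sample.

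Control probe sets (102) were left out. Of the rest, 44988 named a single gene, 1832 several and 2473 none in the platform annotation, and RefSeq (GRCh38.p14) matched 44961 by gene identifier. Each gene was read from its brightest probe set by mean over the 4 arrays, with no filter. The test was limma 3.58.1 (R 4.3.3), lmFit followed by eBayes without a block, with p-values adjusted by Benjamini-Hochberg at 0.05 over 18132 genes, or over 49293 probe sets. The fit was tested on simulated data. The number of arrays limits the precision, since an exact two-sided permutation test of 2 against 2 arrays cannot give a p below 0.333. For the background guide, means of 368 probe sets of olfactory receptor genes were taken, and their 95th percentile was used. Figures used matplotlib 3.10.9 in Python 3.11.15.

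The 38 genes and all lists were chosen with earlier results of these data known. Genes called with a difference of at least 1 are given by array, and of each related list up to 4 called genes with the largest differences. FURIN, RHBDF1, RHBDF2, SDC1, DCUN1D5, LGMN, HPSE2 and the tetraspanins other than TSPAN14 and TSPAN15 were named after their values were seen. Alternatives were other probe set choices, a filter on dim genes, other normalizations, variance priors, a replicate block, the methods' t-test and each array left out in turn. Another 7 symbols of these lists, without a probe set of their own, were not analysed here.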

Additional observations from a re-analysis of the deposited data

How the results depend on the processing

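Among the 38 genes, the count of lower calls (15) was 12 to 20 under every limma alternative and with each array left out (12 to 16), and 9 by the methods' t-test after Benjamini-Hochberg adjustment (15 unadjusted). The count of higher calls (5) was 2 when genes below the median level were left out, which leaves 15 of the 38, 3 by the adjusted methods' t-test, and 5 to 6 with each array left out. Probe sets called lower (47) were 37 to 50 and higher (12) 9 to 13 with each array left out, and 6 higher above the median level. Of 20 called genes, 12 kept their call under each adjusted alternative that tested them (the filter on dim genes took out ADAM8 and SPOCK1) and 16 with each array left out. The others of the latter were CTSD, MMP1, MMP2 and MMP24. Signs were compared for the 29 genes called in the main fit or an adjusted alternative, and not for the rest of the 38. Among the 29, signs turned for MMP11 with arrays centred on their medians (-0.0246) and for MMP13 without probe sets of shared or mixed type (0.24). With an array left out, they turned for MMP11 (-0.00314 to 0.23, lowest without ELK3 KD replicate 1). They also turned for TIMP3 (-0.31 to 1.86, lowest without control replicate 2). None of the turned values passed the test, and the cause was not tested.

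Centring moved the median of all genes from -0.05 to -0.19 and the share of calls that were higher from 52.6% to 36.6% (47.3% with quantile normalization again). Among the 38 genes that share was 25%, 20% and 25%. The repeat numbers did not pair the arrays (r = 0.0109 between the repeat differences of the groups over 18132 genes, a description). With the replicate block 14 genes were lower and 5 higher, and 46 and 12 probe sets. It ended the call of MMP24 and no other of the 20.

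Precision rests on 2 arrays a group, and where a group mean lay below the background guide the size of a difference is limited. No scanner files were used here, so background correction could not be varied.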
